A study of Mus musculus with 8 samples.

Results

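The Id genes and the feedback targets of SMAD signalling were read as 10 rows of the count tables, selected by gene symbol: Id1, Id2, Id3, Id4, Smad6, Smad7, Pmepa1, Skil, Tmem100 and Bambi. These were 10 of the 18957 genes listed, and all 10 entered the genotype test, which covered 13036 genes. Id1, Id2, Id3, Id4, Smad6 and Tmem100 were grouped as BMP-type targets, Smad7, Pmepa1 and Skil as TGF-beta-type targets, and Bambi was kept apart. The set was put together with the genotype differences of Id1, Id3 and Pmepa1 in these same libraries known, so the genotype values of all 10 genes are a description of these libraries and not independent evidence.

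Bone morphogenetic proteins (BMPs) and transforming growth factor beta (TGF-beta) signal through pairs of serine/threonine kinase receptors that phosphorylate receptor SMADs, which join SMAD4 and enter the nucleus. The BMP branch is best known for inducing the Id genes, whose products are helix-loop-helix proteins without a DNA-binding region that hold E proteins away from DNA, and Smad6, an inhibitory SMAD. The TGF-beta branch, a main driver of matrix production in cardiac fibroblasts, induces its own brakes: SMAD7 blocks the receptors, PMEPA1 sequesters receptor SMADs at membranes and SKIL (SnoN) represses SMAD-bound promoters. TMEM100 is a small membrane protein known from endothelial cells as a target of BMP receptor signalling, and BAMBI is a pseudoreceptor without a kinase region.

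RNA was measured in 4 WT and 4 Pdgfra-Cre:LmnaF/F libraries of cardiac fibroblasts from mice 3 to 4 weeks old, sorted from perfused ventricles for surface PDGFRA and for the absence of blood lineage markers. The Pdgfra-Cre:LmnaF/F mice carried a Pdgfra-Cre BAC transgene and 2 floxed alleles of Lmna, which encodes lamins A and C, whereas the WT littermates carried no transgene and no floxed allele, so that the effects of Cre and of the deletion cannot be told apart. Per the study, the Pdgfra locus is active in some cardiac myocytes before birth, so that these also lost Lmna, and LMNA was not lost from every fibroblast. Lmna was 365 ± 88.4 CPM (TMM-scaled counts relative to library size, SD, n = 4) in WT and 111 ± 20.0 CPM in Pdgfra-Cre:LmnaF/F libraries, and the 8 fibroblast markers summed to 82819 to 96809 CPM in WT and 80941 to 93525 CPM in Pdgfra-Cre:LmnaF/F libraries, with none at 0. Total counts ranged from 2080555 in WT replicate 2 to 12502949 in Pdgfra-Cre:LmnaF/F replicate 4. Y-linked transcripts were high in WT replicates 1, 2 and 4 and in Pdgfra-Cre:LmnaF/F replicate 4 and low in the other 4 libraries, so the genotypes were not balanced for them.

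The 4 Id transcripts share the coding sequence of the helix-loop-helix region, and reads from one could in principle be given to another. The 120 coding bases that follow are shown because they are the stretch over which the family is most alike, 5′ to 3′ on the coding strand, with capitals at the 69 positions (57.5%) that are identical in all 4 genes. Each stretch lies in 1 coding exon of GRCm38 (mm10): Id1 at chr2:152736518-152736637, Id2 at chr12:25095783-25095902 on the minus strand, Id3 at chr4:136144002-136144121 and Id4 at chr13:48261693-48261812.
Id1: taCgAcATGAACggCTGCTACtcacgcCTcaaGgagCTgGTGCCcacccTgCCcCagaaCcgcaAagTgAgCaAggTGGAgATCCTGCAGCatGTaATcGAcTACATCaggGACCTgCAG
Id2: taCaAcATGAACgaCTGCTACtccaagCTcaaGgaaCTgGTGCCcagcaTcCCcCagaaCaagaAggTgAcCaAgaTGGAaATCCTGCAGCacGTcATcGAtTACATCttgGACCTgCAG
Id3: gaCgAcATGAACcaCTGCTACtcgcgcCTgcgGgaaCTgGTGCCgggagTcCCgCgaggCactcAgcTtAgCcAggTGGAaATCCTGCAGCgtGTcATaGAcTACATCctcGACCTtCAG
Id4: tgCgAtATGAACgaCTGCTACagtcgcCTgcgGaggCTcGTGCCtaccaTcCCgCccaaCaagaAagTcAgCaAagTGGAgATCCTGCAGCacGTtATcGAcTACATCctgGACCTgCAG
Pairwise identity over these bases ranged from 70.8% for Id1 with Id3 and for Id3 with Id4 to 81.7% for Id1 with Id2. The longest run of bases shared by 2 whole transcripts was 19, between Id2 and Id3, shorter than the read length of 150 bases. Id4 overlaps A330033J07Rik and Gm49291 on the opposite strand.

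The levels of the 10 genes in WT fibroblasts were compared after counts were scaled per kilobase of exon and by library size (RPKM). Id3 was the highest at 111 ± 48.0 RPKM (SD, n = 4), and Tmem100 at 54.8 ± 11.7, Pmepa1 at 40.7 ± 5.41, Id2 at 32.1 ± 16.5 and Id1 at 26.9 ± 3.10 RPKM followed. Smad7 at 13.1 ± 2.34 and Skil at 10.2 ± 1.11 RPKM lay in the middle, and Bambi at 4.39 ± 1.12, Smad6 at 2.99 ± 1.14 and Id4 at 1.96 ± 2.30 RPKM were the lowest. Neighbours in this order kept it in all 4 WT libraries for Tmem100 over Pmepa1, Id1 over Smad7, Smad7 over Skil, Skil over Bambi and Bambi over Smad6, although Smad7 and Skil changed places when the length of the longest transcript was used. Id3 lay above Tmem100 in 3 of 4 libraries, by a log2 ratio of 0.91 ± 0.72. The remaining neighbours differed by less than their spread: Pmepa1 lay above Id2 and Smad6 above Id4 in 3 of 4 libraries each, and Id2 above Id1 in 2 of 4. In the Pdgfra-Cre:LmnaF/F libraries Id3 was again the highest at 306 ± 75.8 RPKM, Id1 stood in position 2 at 71.0 ± 27.5 RPKM, and Tmem100 and Pmepa1 stood in positions 4 and 6 at 19.5 ± 2.57 and 17.4 ± 5.62 RPKM.

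Of the 10 genes, 3 passed an adjusted p under 0.05 between genotypes (edgeR quasi-likelihood test, Benjamini-Hochberg adjustment over all genes tested): Id1 rose, and Tmem100 and Pmepa1 fell. Over all genes tested the share that passed was 0.407%, with 0.169% higher and 0.238% lower. In 4 of the 10, namely these 3 and Id3, the genotypes did not overlap, against 8.03% of all genes tested (4.06% with the Pdgfra-Cre:LmnaF/F libraries higher and 3.97% lower). These shares were among the values that prompted the set and are printed for scale only. The median log2 fold change of the 10 genes was 0.48, and that of all genes tested was 0.02, with 5th and 95th percentiles of -1.02 and 1.18.

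**Figure D1:**
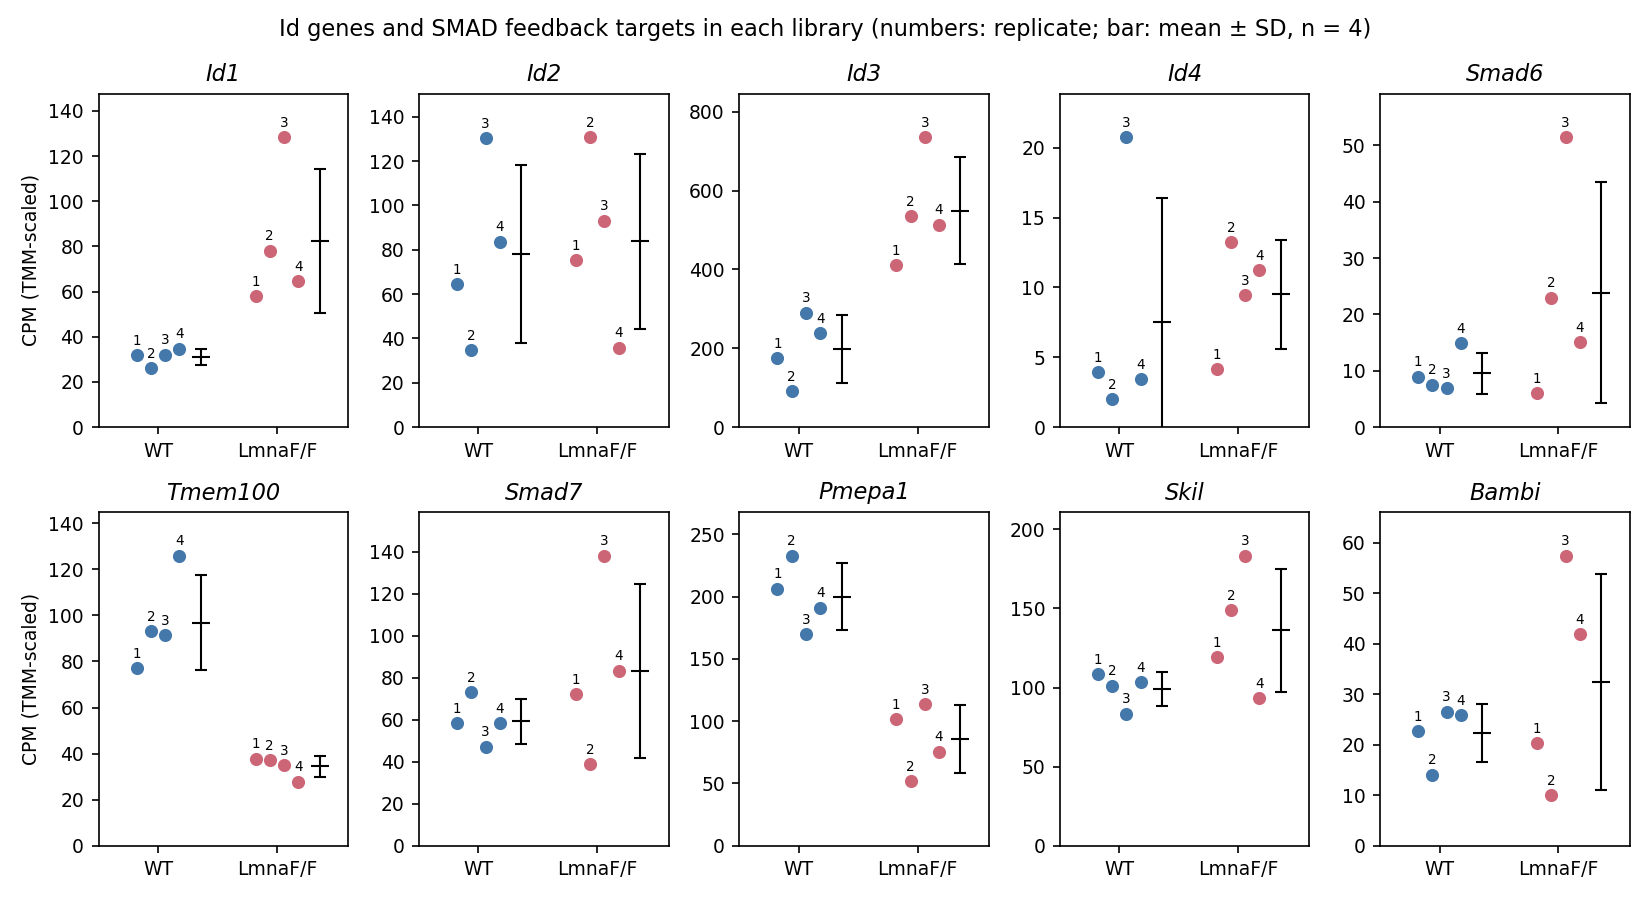
Expression of each gene in the 8 libraries as TMM-scaled CPM on a linear axis from 0. Points are libraries numbered by replicate, and the bar beside each group is the mean ± SD of 4 libraries. Id1 and Id3 sit higher and Tmem100 and Pmepa1 lower in every Pdgfra-Cre:LmnaF/F library than in any WT library, and the other 6 genes overlap.

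Id1 (ENSMUSG00000042745, chr2:152736251-152737410) encodes the Id protein most widely used as a readout of BMP receptor activity. WT replicates 1 to 4 gave 31.9, 26.2, 32.1 and 34.7 CPM, and Pdgfra-Cre:LmnaF/F replicates 1 to 4 gave 57.9, 78.1, 128 and 64.7 CPM. The WT libraries lay close together, every Pdgfra-Cre:LmnaF/F library lay above them, and replicate 3 was the highest. The means were 31.2 ± 3.60 and 82.3 ± 31.9 CPM (SD, n = 4 each), a 2.62-fold difference with a log2 fold change of 1.39 ± 0.27 (SE, 95% interval 0.82 to 1.96, edgeR adjusted p = 0.0368). Leaving out 1 library at a time, the log2 fold change lay between 1.10 and 1.52, and Id1 passed the threshold in 2 of 8 fits, those without Pdgfra-Cre:LmnaF/F replicate 1 or 4. Without replicate 3 of that genotype it was 1.10 (edgeR adjusted p = 0.129), without replicate 2 the adjusted p was 0.0878, and without WT replicate 1, 2, 3 or 4 it was 0.111, 0.116, 0.0645 and 0.103.

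Id3 (ENSMUSG00000007872, chr4:136143497-136145755), was the most abundant Id transcript in these cells. Its levels in the controls, in replicate order, were 174, 90.6, 289.8 and 238 CPM, and in Pdgfra-Cre:LmnaF/F replicates 1 to 4 they were 411, 535, 736 and 514 CPM. The genotypes did not overlap, with WT replicate 3 the highest control and Pdgfra-Cre:LmnaF/F replicate 3 the highest library of all. The means were 198 ± 85.9 and 549 ± 136 CPM, and the log2 fold change of 1.47 ± 0.31 (95% interval 0.81 to 2.12) was as large as that of Id1 but missed the threshold (edgeR adjusted p = 0.0568). It passed without WT replicate 3 (1.70, edgeR adjusted p = 0.0374) and without Pdgfra-Cre:LmnaF/F replicate 4 (1.49, edgeR adjusted p = 0.0452).

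Id2 (ENSMUSG00000020644, chr12:25093799-25097140, minus strand), the Id gene with broad roles in lymphoid and neural cells, gave 64.5, 34.7, 130.4 and 83.6 CPM in WT and 75.4, 131, 93.1 and 35.8 CPM in Pdgfra-Cre:LmnaF/F replicates 1 to 4. The genotypes covered the same range, and the log2 fold change was 0.09 ± 0.38 (95% interval -0.73 to 0.90, edgeR adjusted p = 0.961), an interval that lies below the estimates for Id1 and Id3. Id4 (ENSMUSG00000021379, chr13:48261228-48266026), known mainly from neural precursors, was the least abundant of the 10, with 3.92, 2.01, 20.8 and 3.42 CPM in WT and 4.14, 13.2, 9.44 and 11.2 CPM in Pdgfra-Cre:LmnaF/F replicates. WT replicate 2 held 4 reads of Id4, and WT replicate 3 stood apart from the other 3 controls. The log2 fold change of Id4 was 0.32 ± 0.71 (95% interval -1.19 to 1.83), an interval that takes in differences of either sign. It was 1.56 without WT replicate 3 (edgeR adjusted p = 0.368), 0.95 with 1 RUVr factor, a fitted term for unwanted variation, and 1.03 with limma-voom. The 4 Id genes thus fell into Id1 and Id3 on one side, with separated genotypes, and Id2 and Id4 on the other, with overlapping genotypes. The difference between these pairs was not tested.

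Smad6 (ENSMUSG00000036867, chr9:63953076-64022059, minus strand), the inhibitory SMAD that acts mostly on BMP receptors, gave 8.97, 7.55, 6.87 and 14.9 CPM in WT and 6.00, 22.9, 51.5 and 15.1 CPM in Pdgfra-Cre:LmnaF/F replicates 1 to 4. The genotypes overlapped, and Pdgfra-Cre:LmnaF/F replicate 1 lay below every control. The log2 fold change was 1.30 ± 0.54 (95% interval 0.14 to 2.46, edgeR adjusted p = 0.364), and it was 0.61 without Pdgfra-Cre:LmnaF/F replicate 3 and 0.37 with limma-voom, which weights libraries by quality.

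Tmem100 (ENSMUSG00000069763, chr11:90030348-90036508) went the opposite way to Id1 within the BMP-type group. WT replicates 1 to 4 gave 77.2, 93.1, 91.4 and 126 CPM, and Pdgfra-Cre:LmnaF/F replicates gave 37.8, 37.1, 34.9 and 27.8 CPM. The Pdgfra-Cre:LmnaF/F libraries were tightly grouped and all lay below the lowest control. The means were 96.9 ± 20.7 and 34.4 ± 4.55 CPM, a 2.82-fold lower level with a log2 fold change of -1.50 ± 0.22 (95% interval -1.97 to -1.02, edgeR adjusted p = 0.0126), and its p-value ranked 8 among all genes tested. Tmem100 passed in 7 of 8 fits with 1 library left out, the exception being the fit without WT replicate 4 (-1.34, edgeR adjusted p = 0.0522).

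Since Tmem100 is known as an endothelial gene, endothelial markers were read beside it. The 10 markers summed to 611 to 849 CPM in WT (mean 759.6 ± 103) and to 471 to 659 CPM in Pdgfra-Cre:LmnaF/F libraries (mean 539 ± 83.7), a ratio of 0.710 (exact two-sided permutation test, p = 0.0571, where the smallest possible p is 0.0286). Of these, 8 of 10 were lower on average in Pdgfra-Cre:LmnaF/F libraries, among them Tek (log2 fold change -0.59) and Cdh5 (-1.17). The other 2, Flt1 (0.35) and Vwf (0.40), were higher. None passed the adjusted threshold, and none was at 0 in any library. Tek alone gave 473 CPM of the WT mean and 313 CPM of the Pdgfra-Cre:LmnaF/F mean, so the summed ratio rests largely on 1 gene. The mesothelial markers, 5 in number, all lay below 0 in log2 fold change and summed to 8.47 to 42.8 CPM in WT and 6.67 to 14.3 CPM in Pdgfra-Cre:LmnaF/F libraries (ratio 0.415, exact two-sided permutation test, p = 0.114). The part of either cell type in the Tmem100 difference was not tested, and in these bulk samples fewer cells of a type and less RNA per cell cannot be told apart.

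Pmepa1 (ENSMUSG00000038400, chr2:173224458-173276533, minus strand) was the TGF-beta-type target with separated genotypes. WT replicates 1 to 4 gave 206, 233, 169.8 and 191 CPM, and Pdgfra-Cre:LmnaF/F replicates gave 102, 51.8, 114 and 75.6 CPM. All Pdgfra-Cre:LmnaF/F libraries lay below the lowest control. The means were 200.03 ± 26.6 and 85.7 ± 27.6 CPM, a 2.33-fold lower level with a log2 fold change of -1.22 ± 0.24 (95% interval -1.74 to -0.71, edgeR adjusted p = 0.0427). The call was close to the threshold and was lost in each of the 8 fits with 1 library left out, whichever library it was, with log2 fold changes between -1.39 and -1.05 and adjusted p between 0.0515 and 0.122.

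The other 2 TGF-beta-type targets did not pass the test, and both had higher means in Pdgfra-Cre:LmnaF/F libraries. Smad7 (ENSMUSG00000025880, chromosome 18) gave 58.4, 73.0, 47.1 and 58.2 CPM in WT and 72.2, 38.9, 138 and 83.3 CPM in Pdgfra-Cre:LmnaF/F replicates, with a log2 fold change of 0.50 ± 0.31 (95% interval -0.17 to 1.16, edgeR adjusted p = 0.584). Skil (ENSMUSG00000027660, chr3:31095058-31122577) gave 108, 101, 83.6 and 103 CPM in WT and 119, 149, 184 and 93.1 CPM in Pdgfra-Cre:LmnaF/F replicates, with a log2 fold change of 0.46 ± 0.22 (95% interval -0.02 to 0.93, edgeR adjusted p = 0.445). Bambi (ENSMUSG00000024232, chromosome 18) gave 22.7, 14.1, 26.5 and 25.8 CPM in WT and 20.3, 10.01, 57.4 and 41.8 CPM in Pdgfra-Cre:LmnaF/F replicates, with a log2 fold change of 0.52 ± 0.44 (95% interval -0.41 to 1.46, edgeR adjusted p = 0.718). For Smad7 and Bambi, Pdgfra-Cre:LmnaF/F replicate 2 was the lowest of all 8 libraries and replicate 3 the highest, so the spread within that genotype was larger than the difference between the means. Without replicate 3 the log2 fold change was 0.14 for Smad7, 0.28 for Skil and 0.10 for Bambi. Without replicate 2 of that genotype it was 0.73 for Smad7, 0.41 for Skil and 0.82 for Bambi. None of the 3 passed the adjusted threshold in either fit.

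**Figure D2:**
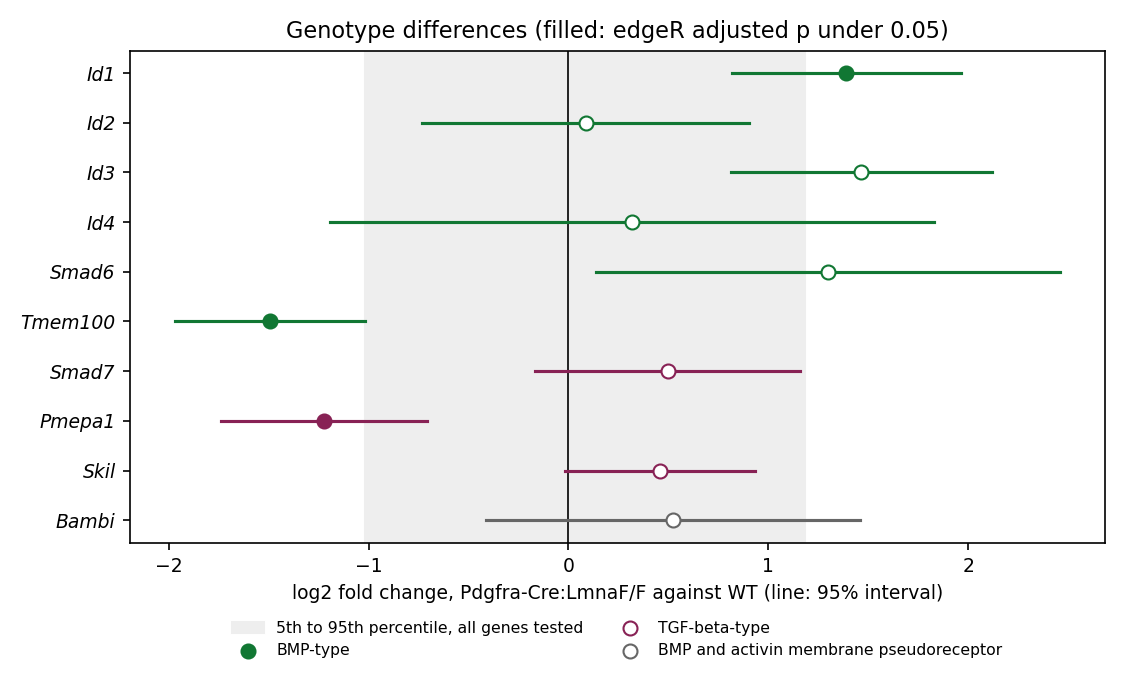
Fitted log2 fold change of each gene, Pdgfra-Cre:LmnaF/F against WT, with its 95% interval as a line. Filled points passed an edgeR adjusted p under 0.05, colours give the target type, and the grey band holds the 5th to 95th percentile of all genes tested. Id1 at 1.39, Tmem100 at -1.50 and Pmepa1 at -1.22 are filled, and the intervals of Id2, Id4, Smad7, Skil and Bambi cross 0.

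The contrast of BMP-type with TGF-beta-type targets did not separate the genotypes. The mean fitted log2 fold change of the 6 BMP-type targets was larger than that of the 3 TGF-beta-type targets by 0.60, and the medians were 0.81 and 0.46. The difference of 0.60 was 0.38 without WT replicate 2, 0.40 without Pdgfra-Cre:LmnaF/F replicate 2 and 0.96 without WT replicate 3. It was 0.76 with 1 RUVr factor in edgeR or DESeq2 and 0.44 with Y-linked expression as a term. Within the 4 libraries of high Y-linked expression, where Pdgfra-Cre:LmnaF/F is a single library, it was 0.79. Within the 4 of low Y-linked expression, where WT is a single library, it was -0.0045. In each library the mean log2 CPM of the BMP-type targets was also set against that of the TGF-beta-type targets. This difference was -1.78, -2.40, -0.79 and -1.35 in WT replicates 1 to 4, and -1.45, -0.09, -0.96 and -0.98 in Pdgfra-Cre:LmnaF/F replicates. The groups overlapped, since WT replicate 3 lay above 3 of the 4 Pdgfra-Cre:LmnaF/F libraries, and the means were -1.58 ± 0.68 and -0.87 ± 0.57. The BMP-type mean was 5.13 ± 0.50 in WT and 5.68 ± 0.49 log2 CPM in Pdgfra-Cre:LmnaF/F libraries, and the TGF-beta-type mean was 6.71 ± 0.19 and 6.55 ± 0.46 log2 CPM. Neither type moved as a block: Id1 rose while Tmem100 fell among the BMP-type targets, and Pmepa1 fell while Smad7 and Skil had fitted values above 0.

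**Figure D3:**
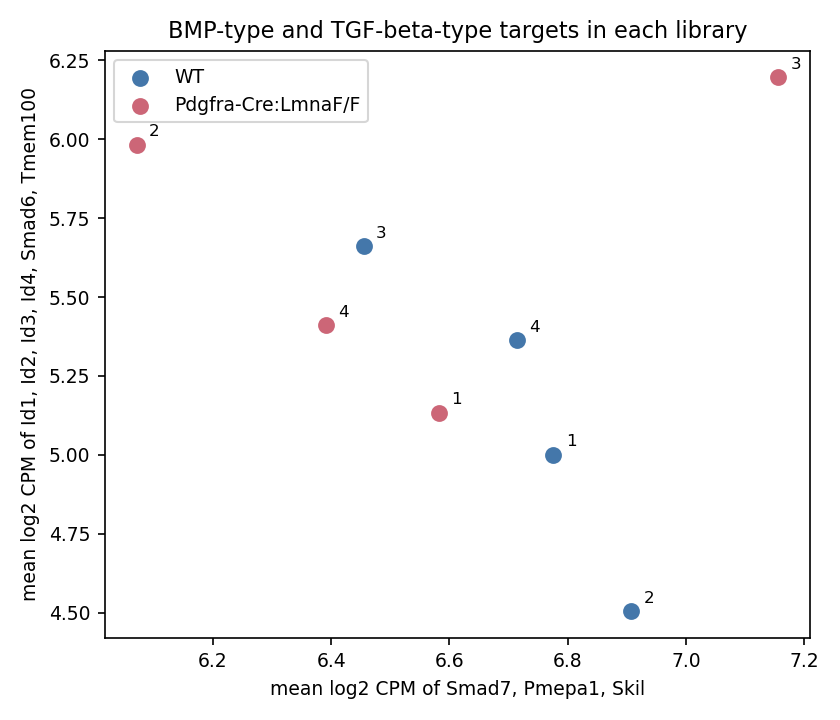
Mean log2 CPM of the 6 BMP-type targets (vertical) against that of the 3 TGF-beta-type targets (horizontal) in each library, numbered by replicate and coloured by genotype. The genotypes overlap on both axes, from 4.50 to 5.66 (WT) and 5.13 to 6.20 (Pdgfra-Cre:LmnaF/F) vertically.

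Libraries differed from one another in ways that crossed these genes. Pdgfra-Cre:LmnaF/F replicate 3 was the highest library of its genotype for 7 of the 10 genes, all but Id2, Id4 and Tmem100. WT replicate 2, the shallowest library, was the lowest control for 5, the 4 Id genes and Bambi. Among the 4 libraries with high Y-linked transcripts (3 WT and 1 Pdgfra-Cre:LmnaF/F) and among the 4 with low Y-linked transcripts (1 and 3), Id1 and Id3 were higher and Tmem100 and Pmepa1 lower in Pdgfra-Cre:LmnaF/F libraries, which their separation over all 8 libraries already fixes. In each set 1 genotype was a single library, so that genotype and library cannot be told apart there. The log2 ratios of the means, with high and with low Y-linked transcripts, were 1.07 and 1.46 for Id1, 1.62 and 0.95 for Id3, -1.83 and -1.32 for Tmem100 and -1.47 and -0.93 for Pmepa1. Id4 had ratios of opposite sign, 1.85 and -1.22, and so had Skil, -0.16 and 0.85. With Y-linked expression as a term, Tmem100 kept its call (-1.57, edgeR adjusted p = 0.0135), while Id1 (1.30, edgeR adjusted p = 0.0631) and Pmepa1 (-1.21, edgeR adjusted p = 0.0633) did not.

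Id genes are also known as rapid-response genes, and 25 genes induced by tissue dissociation were therefore read beside them. Their summed level was 4644 to 7999 CPM in WT (mean 6016 ± 1422). In Pdgfra-Cre:LmnaF/F libraries it was 10109 to 15853 CPM (mean 12285 ± 2499), a ratio of 2.04. An exact two-sided permutation test gave p = 0.0286, the smallest these groups allow. The list was chosen with earlier results of these data known, so this p is a description and not independent evidence. Of the 25 genes, 3 passed the adjusted threshold, all higher in Pdgfra-Cre:LmnaF/F libraries: Ier3 with a log2 fold change of 1.88, Btg2 with 2.08 and Nr4a1 with 1.92 (edgeR adjusted p = 0.0221, 0.0315 and 0.0471), against 0.169% of all genes tested. On the higher side 16 of the 25 had an unadjusted p under 0.05, against 6.24% of all genes tested. The genotypes did not overlap on that side for 14, against 4.06% of all genes tested. Below 0 lay 5 of the 25, namely Jund, Hspb1, Klf2, Klf4 and Rhob. On this lower side none had an unadjusted p under 0.05 (5.65% of all genes tested). Only Rhob had genotypes that did not overlap there (3.97% of all genes tested). Pdgfra-Cre:LmnaF/F replicate 3, the highest library for Id1, Id3, Smad6, Smad7, Skil and Bambi, also had the highest sum. Among the controls, WT replicate 3 had the highest sum. It was the highest control for Id2, Id3, Id4 and Bambi and the lowest for Smad6, Smad7, Pmepa1 and Skil. The part of the dissociation response in the Id1 and Id3 values was not tested.

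The remaining genes of the pathway were read from 9 lists of 101 genes, of which 99 were listed and 81 tested. None passed the adjusted threshold in edgeR, against 0.407% of all genes, while 8 had an unadjusted p under 0.05 on the higher and 9 on the lower side (6.24% and 5.65% of all genes). The genotypes did not overlap for 4 on the higher and 6 on the lower side (4.06% and 3.97% of all genes). Across alternative methods with all libraries the count ranged up to 6 when no filter on low counts was applied, and DESeq2 called 2, Fkbp1a and Tgfbr1. The median log2 fold change of the 81 genes was 0.07, with 44 above and 37 below 0.

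Among BMP ligands, 5 were tested, 3 above and 2 below 0. Bmp4, a ligand made by many mesenchymal cells, had a log2 fold change of 0.37 ± 0.22 and Gdf6 of 0.54 ± 0.41 (edgeR adjusted p = 0.573 and 0.676). Of 10 BMP receptors and coreceptors, 4 lay above and 6 below 0, and the lowest p belonged to the type II receptor Acvr2a with 0.82 ± 0.29 and the coreceptor Rgma with -0.61 ± 0.23 (edgeR adjusted p = 0.262 and 0.311). Of 9 secreted antagonists and modulators, Nbl1, which binds BMPs, had -1.04 ± 0.34 and Twsg1 -0.54 ± 0.19 (edgeR adjusted p = 0.218 and 0.249).

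On the TGF-beta side, 11 ligands and receptors were tested, 5 above and 6 below 0. The type I receptor Tgfbr1 had 0.83 ± 0.23 and the ligand Tgfb3 -0.55 ± 0.19 (edgeR adjusted p = 0.138 and 0.249). The 6 receptor and common SMADs had a median of -0.06, with Smad4 at 0.28 ± 0.20 and Smad1 at -0.20 ± 0.25 (edgeR adjusted p = 0.636 and 0.833). Of 16 intracellular regulators, 12 lay above 0, and the lowest p belonged to Fkbp1a, which holds type I receptors inactive, with -0.81 ± 0.21, and to the corepressor Ski, a relative of Skil, with -0.60 ± 0.21 (edgeR adjusted p = 0.129 and 0.247).

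Other targets of both branches were mixed. Of 5 other BMP targets, 3 lay above 0, among them the T-box repressor Tbx2 with 0.82 ± 0.34 and Atoh8 with 1.12 ± 0.55 (edgeR adjusted p = 0.352 and 0.456). Of 12 other TGF-beta targets, 9 lay above 0, with a median of 0.52. The collagen crosslinking enzyme Lox had 1.86 ± 0.48 and the focal adhesion adaptor Tgfb1i1 -1.04 ± 0.31 (edgeR adjusted p = 0.125 and 0.192), so the 2 with the lowest p had opposite signs, as Pmepa1 and Smad7 had. Lox was 371 ± 324 CPM in Pdgfra-Cre:LmnaF/F libraries, and its log2 fold change was 1.10 without replicate 4 of that genotype and 1.23 with limma-voom. Of 7 helix-loop-helix partners of Id proteins, the E protein Tcf3 had -0.53 ± 0.22 and Hand2 -0.57 ± 0.36 (edgeR adjusted p = 0.370 and 0.592), and the median was -0.02.

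**Figure D4:**
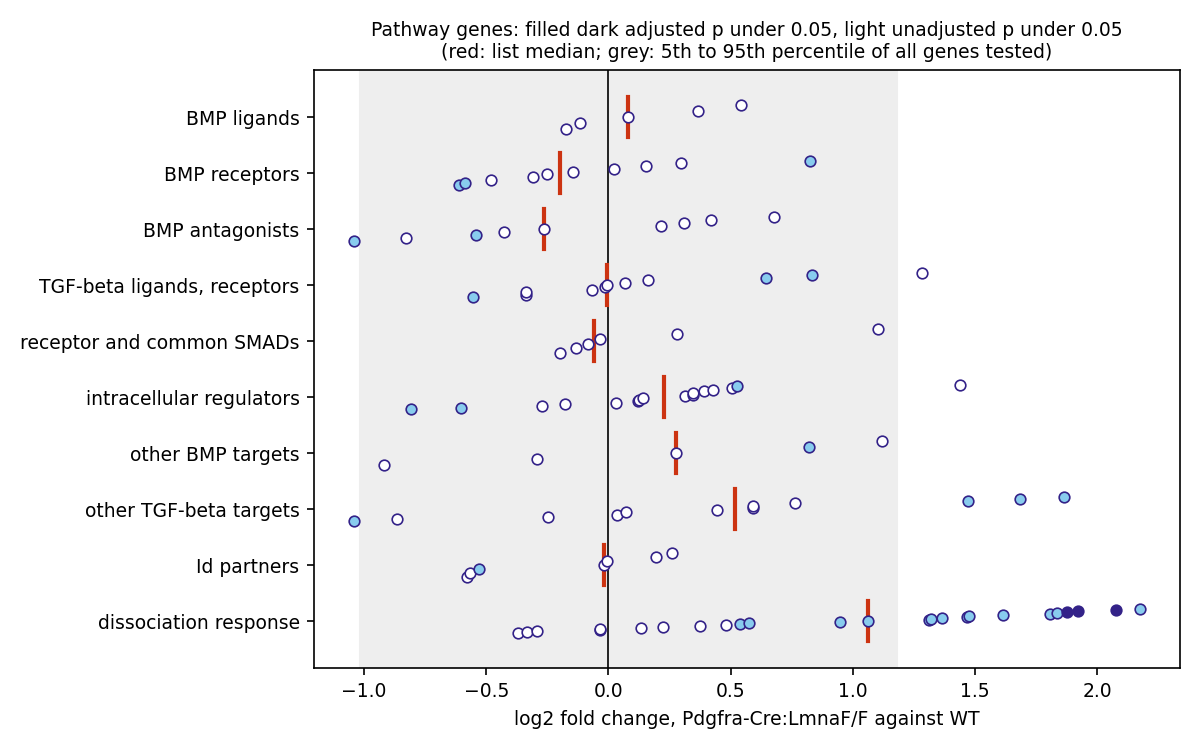
Fitted log2 fold change, Pdgfra-Cre:LmnaF/F against WT, of every tested gene of 9 pathway lists and of the dissociation list, 1 point per gene. Dark points passed an edgeR adjusted p under 0.05, light blue points an unadjusted p under 0.05, the red bar is the list median and the grey band the 5th to 95th percentile of all genes tested. No pathway gene is dark, and the dissociation list has a median of 1.06 with 3 dark points.

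Promoter sequence was read from RefSeq (GRCm38.p6) as the 250 bases before the start of Id2, Id3, Id4 and Smad6, the 4 of 10 genes with an entry. On both strands, GGCGCC, a core of BMP-responsive elements, was found 231 bases before the start of Id2 and 148 bases before that of Id4 and in 9.59% of 32851 promoters. CAGAC, a short SMAD-binding element, was found in Id3 at 167 and 68 bases before its start, the latter on the minus strand, and in 42.2% of promoters. The palindrome GTCTAGAC was found in none of the 4 and in 0.167% of promoters. The Id2 and Id3 windows lie within the GENCODE gene models, which start farther upstream than the RefSeq ones, so these positions depend on which start is used.

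The profiles most like those of Id1 and Pmepa1 were found by the root mean square (RMS) difference of mean-centred log2 CPM over the 8 libraries, whose own RMS about the mean was 0.74 and 0.72. Those nearest Id1 were Ccnl1 at 0.23, Smarca5 at 0.23, Arhgap5 at 0.26, Cdc14a at 0.26 and Ska3 at 0.26, nearer than Id3 at 0.40. Those nearest Pmepa1 were Ccdc14 at 0.24, Slc29a3 at 0.25, Pltp at 0.26, Nacc1 at 0.27 and Prelp at 0.28. All these points share the same 8 libraries, and Ska3, at 1.28 CPM in WT, rests on few reads.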

How the data were processed

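RNA of FACS-sorted cardiac fibroblasts of WT and Pdgfra-Cre:LmnaF/F mice was analysed as 8 libraries, 4 per genotype, with genotype and replicate number taken from the sample labels. The labels do not state whether a library is 1 mouse, so p-values measure the spread between these samples. The authors made strand-specific, rRNA-depleted libraries of RNA with a RIN above 8, read 150 bp paired ends, aligned them to mm10 with HISAT2 and counted GENCODE genes with featureCounts. The values they deposited are raw counts, not scaled for depth and without the RUV step named in their methods. Genes with totals under 4 over the 8 libraries are not listed.

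The counts were tested with edgeR 4.0.16 (quasi-likelihood, TMM, filterByExpr, Benjamini-Hochberg) in R 4.3.3, with genotype as the only term. SE is the log2 fold change over the square root of F. Log2 CPM used a prior count of 2. RPKM values are TMM-scaled CPM per kilobase of the exon union (GENCODE M21). Alternatives were other scaling factors and filters, DESeq2 1.42.0, limma 3.58.1 (voom), 1 RUVr factor, the replicate number as a block, Y-linked expression as a term, thinning and leaving out each library. The procedure was tested on simulated counts. Depth and intervals cover counting error and the spread of these libraries only.

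The genes and all lists were chosen with earlier results of these data known. The named genes are the 10 genes, Lmna, the 2 genes with the lowest p in each pathway list, the markers and the 5 profiles nearest Id1 and Pmepa1. Ier3, Btg2 and Nr4a1 are the called genes of the dissociation list. Same-numbered libraries of the 2 genotypes did not deviate together. The summed level of 1 marker list is not reported here.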

Additional observations from a re-analysis of the deposited data

Results flagged for a closer look

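Among 94 groups of 4 libraries checked for a single library far from the other 3 (Dixon's criterion at 95%), 4 stood out, and chance flags about 1 group in 20. Id4 in WT replicate 3 was 20.8 CPM against 2.01 to 3.92 CPM in the other controls, and without this library the log2 fold change of Id4 was 1.56 in place of 0.32, neither passing the test (edgeR adjusted p = 0.368 and 0.917). Tgfbr1 in WT replicate 3 was 101 CPM against 75.5 to 76.2 CPM in the other controls. The cardiomyocyte markers summed to 5767 CPM in Pdgfra-Cre:LmnaF/F replicate 4 against 309.6 to 900.2 CPM in the other libraries of that genotype, and the immune markers to 392 CPM against 43.9 to 85.3 CPM. Without that library, the log2 fold changes were 1.49 for Id1 (edgeR adjusted p = 0.0215), 1.49 for Id3 (0.0452), -1.41 for Tmem100 (0.0147) and -1.17 for Pmepa1 (0.0591).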

How the results depend on the processing

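The 53 genes called by edgeR became 274 with no filter on low counts, 303 with DESeq2, 126 with limma-voom, 81 with edgeR and 455 with DESeq2 after 1 RUVr factor, and 113 with Y-linked expression as a term, and from 13 to 76 with 1 library left out. Of the 10 Id and SMAD feedback genes, 3 were called. With no filter, a minimum of 10 counts, DESeq2, limma-voom or an RUVr factor the count was 4, Id3 being added. It was 1 (Tmem100) with the Y-linked term and 0 to 3 with 1 library left out, 0 without WT replicate 4. In the 2 comparisons added after seeing the data, within libraries of high and of low Y-linked expression, 1 genotype is a lone library assumed to vary like the others, so genotype cannot be told apart from that library and these counts say nothing of Y-linked expression itself: 1060 and 189 genes were called, of which 3 (Id3, Pmepa1, Tmem100) and 0 were among the 10. Pathway genes called, 0 at first, numbered 6, 2, 1 and 3 with no filter, DESeq2, limma-voom and DESeq2 with RUVr, 1 with the Y-linked term, 12 and 2 within high and low Y-linked libraries, and 0 to 1 with 1 library left out. The contrast of 0.60 ranged from 0.38 to 0.96 with 1 library left out. It was 0.79 within high and -0.0045 within low Y-linked libraries. Id2 turned below 0 with the Y-linked term (-0.49), without WT replicate 2 (-0.15) or Pdgfra-Cre:LmnaF/F replicate 2 (-0.21, the lowest of a range up to 0.44 with 1 library left out) and within high (-0.83) and low (-0.38) Y-linked libraries. Id4 did so after thinning (-0.039) and within low Y-linked libraries (-1.21), and within high Y-linked libraries Skil became -0.20 and Smad1 0.14. With 1 library left out, the genotype ratio of summed markers ranged from 0.791 to 1.06 for mural, 0.801 to 2.91 for cardiomyocyte and 0.721 to 1.96 for immune cells, each lowest without Pdgfra-Cre:LmnaF/F replicate 4. The cause of these shifts was not tested.

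With the replicate number as a block, 36 genes and 2 of the 10 (Id3, Tmem100) were called, the contrast was 0.68, and Id1 and Pmepa1 had adjusted p of 0.0764 and 0.0828. Residual correlations of same-numbered libraries lay between -0.030 and 0.040, so these libraries did not deviate together. The labels do not state whether same numbers mark paired samples, and these correlations cannot exclude it. The fewest reads lay behind Id4 and Smad6, with 4 and 15 in WT replicate 2.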

Other observations

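Markers of other cell types that a sort on PDGFRA could let through were also summed. Mural markers had a genotype ratio of 0.958 (exact two-sided permutation test, p = 0.857), with 437 to 999.7 CPM in Pdgfra-Cre:LmnaF/F and 601 to 814 CPM in WT libraries. Cardiomyocyte markers had means of 862 ± 138 and 1959 ± 2553 CPM and immune markers of 98.1 ± 51.7 and 151 ± 162 CPM in WT and Pdgfra-Cre:LmnaF/F libraries (exact two-sided permutation test, p = 0.743 and 0.771). Both ratios turned below 1 without Pdgfra-Cre:LmnaF/F replicate 4, from 2.27 to 0.801 and from 1.54 to 0.721. Of 5 immune markers tested, 4 lay above 0 in log2 fold change and none passed the adjusted threshold. Lyz2 was above 0 in every library, with 21.3 to 134 CPM in WT and 26.9 to 282 CPM in Pdgfra-Cre:LmnaF/F libraries, and so was Csf1r, with 8.26 ± 3.79 and 24.6 ± 15.0 CPM in WT and Pdgfra-Cre:LmnaF/F libraries.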
